A study of Mus musculus with 12 samples.

Results

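The genotype by inoculum interaction asked whether the maternal inoculum was accompanied by a different change in the ileum of IL10-labelled mice than in that of C57-labelled mice. It was computed for each gene of a mouse immune panel as the STAT minus control difference in IL10-labelled samples, minus the same difference in C57-labelled samples. All 12 samples of the series entered it, in 4 groups of 3, and 457 of the 547 genes in the table had enough signal to be tested. A negative interaction means that the STAT minus control difference was smaller, or further below 0, in the IL10-labelled samples.

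Each sample was total RNA from the terminal ileum of 1 female mouse, hybridised to pairs of reporter and capture probes on the NanoString nCounter platform, which counts coloured barcodes without amplification. IL10_STAT were pups described as IL10 deficient, born to mothers given cecal contents perturbed by the treatment that the labels call STAT. IL10_control were pups of the same description, born to mothers given control cecal contents. WT_STAT and WT_control were C57BL/6 pups of mothers given the perturbed and the control contents. The pups themselves are not described as inoculated, and age, mother, litter and cage are not given in the sources used here. The p-values therefore measure only the spread between these samples, and mice of 1 group may share a mother. In whole tissue, fewer cells of a type and less RNA per cell cannot be told apart.

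Interleukin 10 is a cytokine, made by macrophages, regulatory T cells and other leukocytes, that restrains antigen presentation and inflammatory cytokine production by intestinal macrophages. Mice without it can develop inflammation of the bowel that depends on gut microbes, and they are widely used to study how microbes act on a susceptible host. The terminal ileum holds absorptive epithelium, a lamina propria rich in macrophages, T cells and plasma cells, and lymphoid follicles called Peyer's patches, where B cells gather.

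Epithelial markers of the ileum differed widely in level. Pigr, the epithelial receptor that carries antibody across the gut wall, was the most abundant gene in 4 of the 12 samples. The summed signal of the 6 epithelial markers was 28202 to 87962. Among the lower ones, Muc1 was 6.55 to 85.6 over all samples. Nox1 was 10.6 to 59.7 in C57-labelled and 1564 to 2649 in IL10-labelled samples. The Il10 probe ran against the genotype label. Its signal was 31.6, 49.2 and 38.6 in IL10_STAT and 35.2, 74.4 and 24.9 in IL10_control, while it was listed at 0 in the 3 WT_STAT samples and at 0.452, 1.02 and 0 in WT_control. Where the Il10 probe binds relative to the mutation is not given in the sources used here, so the probe checks no label. The Il10 interaction was 0.48 ± 0.53 (log2 difference ± SE, limma adjusted p = 0.684), and it was -0.04 with values under 20 set to 20. Counts above background were 541733 to 717454 in IL10_STAT, 398625 to 506141 in IL10_control, 191012 to 276579 in WT_STAT and 146691 to 365850 in WT_control. WT_STAT 3 and WT_control 3 had the fewest counts of their groups, and the median log2 signal of tested genes was 6.84 in WT_STAT 3 and 6.61 in WT_control 3, against 7.02 to 8.29 in the other 10 samples.

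No gene passed for the interaction. limma called 0 of 457 genes (0%) at a Benjamini-Hochberg adjusted p under 0.05, and 97 genes (21.2%) had an unadjusted p under 0.05. Of those 97, 96 were below 0 (21% of tested genes) and 1 was above 0 (0.219%), the cytokine Il17f. The panel as a whole leaned the same way, with 394 genes (86.2%) below 0 and a median of -0.48. With each sample centred on its own median the panel median was 0.17, 188 genes (41.1%) were below 0, and the genes at an unadjusted p under 0.05 split into 27 below 0 (5.91%) and 32 above 0 (7%). The panel as a whole was thus on either side of 0 by the scaling. Centred values are given beside the deposited ones for most lists and many of the genes named below, though not for all.

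**Figure D1:**
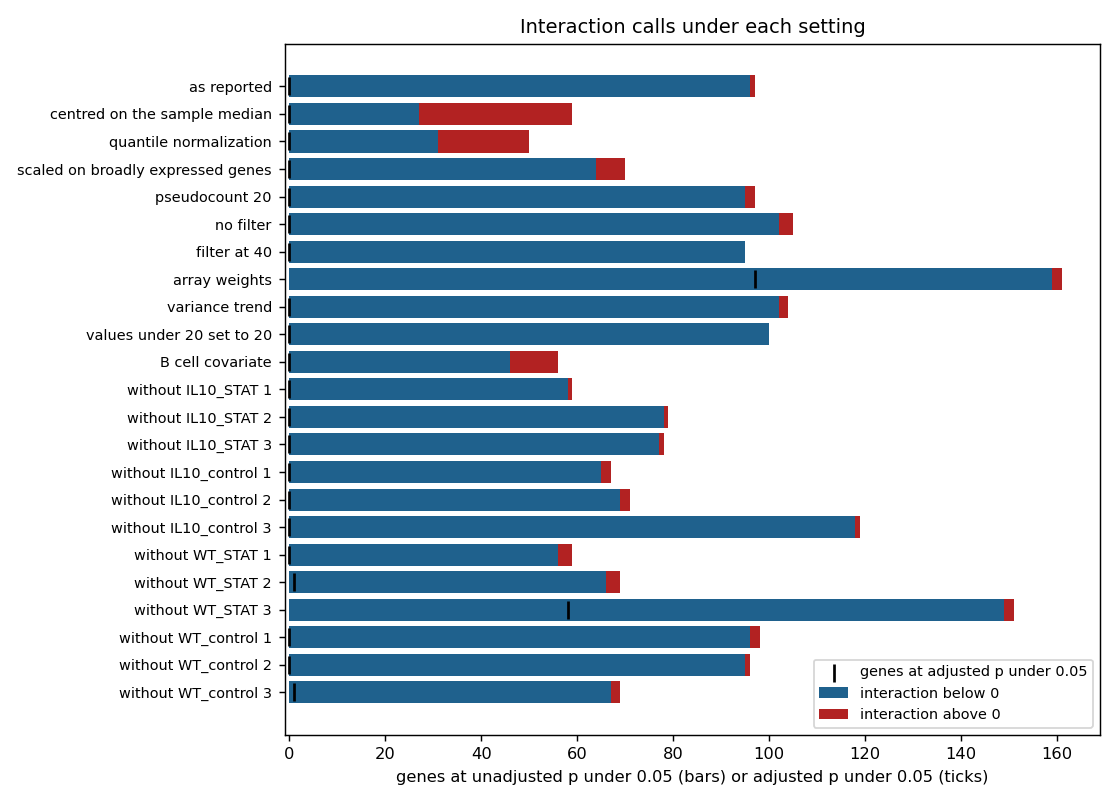
Number of genes at an unadjusted p under 0.05 for the interaction (bars, blue below 0 and red above 0) and at an adjusted p under 0.05 (black ticks), with all samples as reported and under each alternative setting or with 1 sample left out. The ticks stand at 97 with array weights and at 58 without WT_STAT 3, at 1 without WT_STAT 2 and without WT_control 3, and at 0 in the other settings.

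The count of passing genes differed between settings. With array weights, by which limma gives less weight to samples that lie further from their group, 97 genes passed, all below 0, and WT_STAT 3 and WT_control 3 had weights of 0.221 and 0.147, against 0.584 to 3.782 in the others. Without WT_STAT 3, 58 genes passed, all below 0. Of these calls 55 were shared, which is 55 of 97 and 55 of 58. Among the 96 genes below 0 at an unadjusted p under 0.05 with all samples equally weighted, 73 passed with array weights and 46 without WT_STAT 3. Without WT_control 3 only the chemokine Ccl8 passed, and without WT_STAT 2 only Il17f.

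The usual shape among the 96 genes was a higher level under STAT in C57-labelled samples beside a slightly lower one in IL10-labelled samples. In 91 of them (94.8%) the difference was below 0 in IL10-labelled and above 0 in C57-labelled samples, against 295 of all 457 tested genes (64.6%). Both differences were above 0 in the other 5 genes. The C57-labelled difference was the larger in size in 74 genes and the IL10-labelled one in 22. The median difference over the 96 genes was -0.40 in IL10-labelled and 0.81 in C57-labelled samples, against panel medians of -0.22 and 0.24. Since the rule that picked these genes used both differences, these counts describe them and are no support for them.

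**Figure D2:**
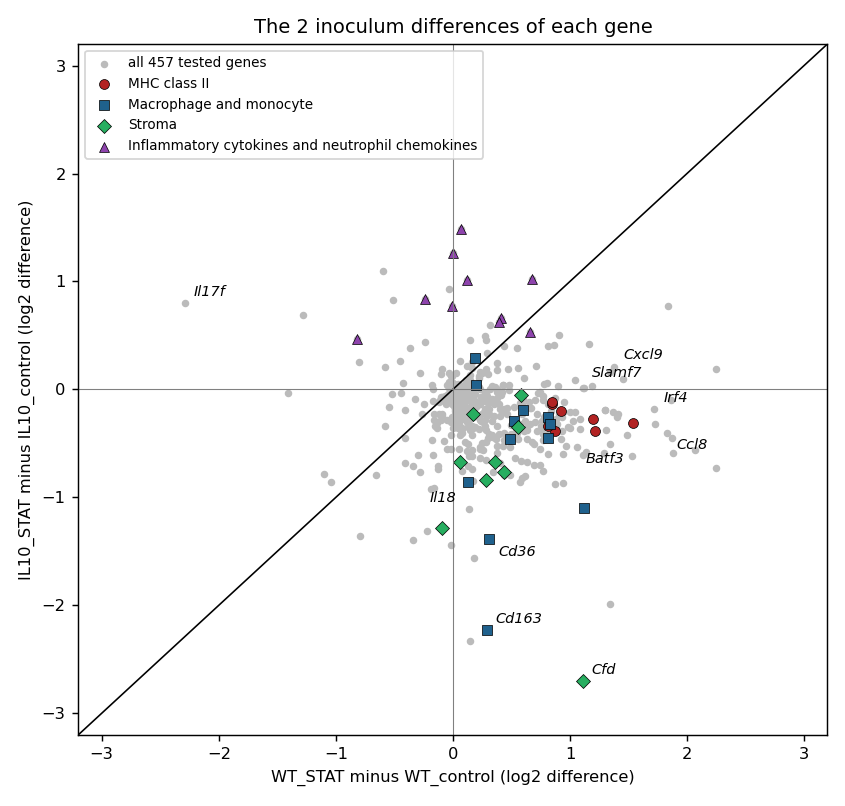
Log2 STAT minus control difference of each tested gene in C57-labelled samples (x axis) against that in IL10-labelled samples (y axis), n = 3 in each of 4 groups, with 4 gene lists coloured. Genes under the diagonal have an interaction below 0. MHC class II genes lie right of 0 and just under it, Cd163 and Cfd lie far below, and the inflammatory cytokines lie above the diagonal, except Tnf.

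The signed gap, IL10-labelled minus C57-labelled, was smaller under STAT for all 96 genes, which their selection fixed. An interaction below 0 is the same thing as a smaller signed gap under STAT. The gap counts of the 96 genes therefore describe them and are no support for them. Among all 457 tested genes, 305 (66.7%) were higher under control with a smaller gap under STAT. Another 86 (18.8%) were lower under control and further below under STAT. Of the 96, 88 (91.7%) were higher in IL10-labelled than in C57-labelled samples under control, as were 357 of all tested genes (78.1%). Among those 88 genes, 76 were still higher in IL10-labelled samples under STAT, and 12 were lower there. The other 8 were lower in IL10-labelled samples under control and further below under STAT, among them Cd163, Cd36, Il18 and Mr1. For 10 genes (2.19%) every IL10_STAT sample was below every IL10_control sample while every WT_STAT sample was above every WT_control sample, and for 0 genes (0%) the opposite held.

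For 44 genes (9.63%) each of the 9 pairwise STAT minus control differences in IL10-labelled samples was below each of the 9 in C57-labelled samples, and the reverse held for 1 gene (0.219%), Il17f. Within the IL10-labelled samples STAT lay below control without overlap in 97 genes (21.2%) and above it in 9 (1.97%). Within the C57-labelled samples STAT lay above control without overlap in 72 genes (15.8%) and below it in 1 (0.219%). All counts of overlap were made on the deposited scaling alone and were not repeated with samples centred. On that scaling the panel median difference was -0.22 in IL10-labelled and 0.24 in C57-labelled samples.

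Irf4 had the smallest p. It encodes a transcription factor of plasma cells, activated T cells and some dendritic cells. Its signal was 69.6, 111 and 89.7 in IL10_STAT and 134, 79.9 and 94.2 in IL10_control. In the C57-labelled mice it was 97.7, 72.7 and 74.3 in WT_STAT and 24.9, 24.2 and 22.6 in WT_control. The WT_control samples stood apart, and the other 3 groups overlapped. The interaction was -1.90 ± 0.35 (95% interval -2.67 to -1.13, limma adjusted p = 0.0815) and -1.25 when centred. Irf4 rose by 1.72 ± 0.25 on the log2 scale in C57-labelled STAT samples (adjusted p = 0.0121), and the difference in IL10-labelled samples was -0.18 ± 0.25 (adjusted p = 0.892). The IL10-labelled minus C57-labelled gap was 0.13 under STAT and 2.03 under control.

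4 genes passed in the C57-labelled contrast alone (0.875% of tested genes), all higher under STAT, and 0 passed in the IL10-labelled contrast (0%), where 28 genes (6.13%) were lower and 3 (0.656%) higher at an unadjusted p under 0.05. At that unadjusted p the C57-labelled contrast had 77 genes higher (16.8%) and 2 lower (0.438%). These splits also depended on the scaling. When centred, the IL10-labelled contrast had 13 lower and 11 higher and the C57-labelled one 36 higher and 21 lower, and when quantile normalized they had 16 lower and 15 higher, and 28 higher and 15 lower. Beside Irf4 the passing genes were Slamf7, Cxcl9 and Ccl8. With each sample centred or quantile normalized none of the 4 passed. Passing in 1 genotype label and not in the other does not show a difference between them, and the interaction is the test of that difference.

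Slamf7, a receptor of plasma cells, natural killer cells and activated macrophages, overlapped between the 2 IL10-labelled groups. Its signal was 400, 411 and 506 in IL10_STAT and 506, 401 and 399 in IL10_control, a difference of 0.01 ± 0.20. In the C57-labelled mice it was 324, 266 and 258 in WT_STAT and 128, 154 and 110 in WT_control, a rise of 1.11 ± 0.20 (limma adjusted p = 0.0315). The WT_STAT samples lay between WT_control and the IL10-labelled samples without overlap. The interaction was -1.10 ± 0.29 (adjusted p = 0.104) and -0.45 when centred.

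Ccl8 encodes a chemokine that draws monocytes. Its signal was 1655, 1899 and 2200 in IL10_STAT and 2700, 2525 and 2354 in IL10_control, so that every STAT sample was below every control sample. It was 595, 323 and 355 in WT_STAT and 111, 70.6 and 191 in WT_control, where every STAT sample was above. Ccl8 rose by 1.83 ± 0.35 in C57-labelled STAT samples (limma adjusted p = 0.0315), and the IL10-labelled difference was -0.40 ± 0.35. The interaction was -2.23 ± 0.49 (adjusted p = 0.104, interval -3.31 to -1.15) and -1.58 when centred. Even so, the WT_STAT samples stayed far below the IL10-labelled ones, by 2.22 on the log2 scale under STAT, against 4.45 under control.

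Cxcl9, an interferon-gamma-induced chemokine for T cells, had the widest gap between genotype labels of these 4 genes. Its signal was 2060, 2053 and 2170 in IL10_STAT and 1545, 2053 and 1873 in IL10_control. It was 64.9, 55.9 and 85.6 in WT_STAT and 20.4, 21.5 and 37.1 in WT_control, a rise of 1.38 ± 0.26 (limma adjusted p = 0.0315). The difference was above 0 in both genotype labels, at 0.21 ± 0.26 in the IL10-labelled samples, and the interaction was -1.17 ± 0.36 (adjusted p = 0.108; -0.53 when centred). The gap was 4.93 under STAT and 6.10 under control.

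Batf3, a transcription factor needed by the dendritic cells that cross-present antigen, was lower under STAT in IL10-labelled and higher in C57-labelled samples, without overlap in either. Its signal was 25.2, 42.2 and 41.1 in IL10_STAT and 47.2, 48.9 and 58.1 in IL10_control, and 29.1, 30 and 29 in WT_STAT against 12.2, 13.3 and 15.3 in WT_control. The interaction was -1.59 ± 0.31 (limma adjusted p = 0.0815) and -0.94 when centred. All 3 WT_control samples were under 20, and with values under 20 set to 20 the interaction was -1.06.

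**Figure D3:**
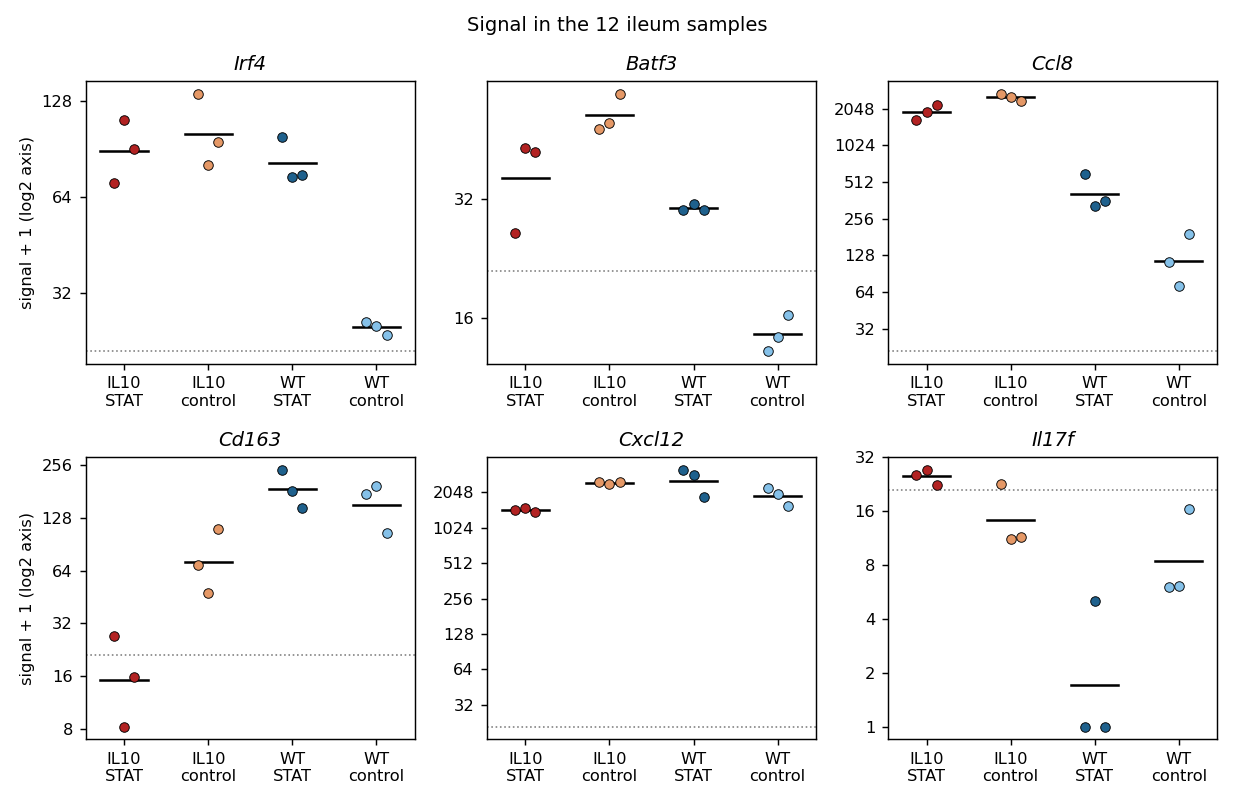
Signal + 1 on log2 axes for 6 genes in the 12 samples, by group, with the bar at the mean of the log2 values and the dotted line at a signal of 20 + 1. Irf4 and Batf3 are low in WT_control, Cd163 and Cxcl12 are low in IL10_STAT, Ccl8 differs in both genotype labels, and Il17f is near or under 20 in most samples.

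The tested MHC class II genes were all below 0, on the deposited scaling and when centred. These molecules display peptides to CD4 T cells, Cd74 is their chaperone, and Ciita is the coactivator that switches their genes on. Of the 8 tested members, 0 passed and 7 were below 0 at an unadjusted p under 0.05, against 21% of the panel. When centred, 0 of the 8 reached that p, against 5.91% of all tested genes below 0. The 8 values lay between -1.85 and -0.97. Their median interaction was -1.20, and -0.56 when centred, against panel medians of -0.48 and 0.17, and it was -0.91 when quantile normalized. The median difference was -0.29 in IL10-labelled and 0.90 in C57-labelled samples. With array weights all 8 passed, against 97 of the 457 tested genes. Without WT_STAT 3, 7 of the 8 passed, against 58 of the 457. The first setting gives WT_STAT 3 a low weight of 0.221 and the second drops it.

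Cd74 shows the levels behind this. Its signal was 56690, 64778 and 68611 in IL10_STAT and 84741, 63052 and 72220 in IL10_control. It was 14726, 11623 and 8470 in WT_STAT and 5886, 6499 and 5567 in WT_control. The WT_STAT samples were all above WT_control and all far below the IL10-labelled samples, which overlapped each other. The interaction was -1.13 ± 0.32 (limma adjusted p = 0.104; -0.48 when centred).

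The peptide-binding chains behaved alike. H2-Eb1 had signals of 3136, 5250 and 5151 in IL10_STAT and 6843, 4957 and 5631 in IL10_control, with 1898, 1499 and 1184 in WT_STAT and 807, 836 and 817 in WT_control. Its interaction was -1.26 ± 0.36 (limma adjusted p = 0.104). H2-Aa was at -0.97 ± 0.30 (adjusted p = 0.108) and H2-Ab1 at -0.99 ± 0.30 (adjusted p = 0.104). Centred values were -0.61 for H2-Eb1, -0.32 for H2-Aa and -0.34 for H2-Ab1. Among the members that load or regulate, Ciita was at -1.46 ± 0.56 (adjusted p = 0.187), H2-DMa at -1.15 ± 0.41 (0.172), H2-DMb2 at -1.60 ± 0.64 (0.192) and H2-Ob at -1.85 ± 0.90 (0.263). Ciita, H2-DMa, H2-DMb2 and H2-Ob fall outside the rule for naming genes and are given to complete the list.

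WT_STAT 3 was the lowest WT_STAT sample for each of the 8 members. Ciita had a signal of 251, 216 and 77.1 in WT_STAT, against 67.4, 95.2 and 53.1 in WT_control, so that WT_STAT 3 lay inside the control range. H2-Ob had 182, 136 and 48.8 in WT_STAT, against 39.4, 41.9 and 28.4 in WT_control. B cells express class II constitutively. The mean log2 signal of the 11 tested B cell markers was 6.60, 6.61 and 4.48 in WT_STAT, against 4.41, 5.47 and 4.14 in WT_control, so that WT_STAT 3 was low there too. With the mean of the 11 tested B cell markers as a covariate the class II median was -0.90, and 5 of the 8 members were below 0 at an unadjusted p under 0.05. The panel median was then -0.22, and 46 of the 457 tested genes were below 0 at that p. The part of B cell content in the class II interaction was not tested further.

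Class II promoters are known for an X box and a Y box close to the start of transcription, bound by the complex that Ciita joins. The promoters of the 3 members in which both motifs were found are shown, as the 150 bases before the start in RefSeq's GRCm38.p6, 5′ to 3′ on the strand of the gene. Capitals mark CTNGCAAC, a core of the X box, and ATTGG, the core of the Y box, searched on both strands.
H2-Aa: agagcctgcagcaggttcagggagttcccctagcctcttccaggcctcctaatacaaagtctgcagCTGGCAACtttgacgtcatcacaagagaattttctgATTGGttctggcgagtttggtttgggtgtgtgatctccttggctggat
H2-Eb1: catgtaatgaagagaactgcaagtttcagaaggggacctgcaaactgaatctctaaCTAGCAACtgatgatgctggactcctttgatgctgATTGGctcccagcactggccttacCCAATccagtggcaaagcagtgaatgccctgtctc
H2-Ob: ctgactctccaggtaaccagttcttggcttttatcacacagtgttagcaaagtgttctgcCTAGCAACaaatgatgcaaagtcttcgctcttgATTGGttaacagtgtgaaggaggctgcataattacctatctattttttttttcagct

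These windows lie at chr17:34287824-34287973 on the minus strand for H2-Aa, and on the plus strand at chr17:34305717-34305866 for H2-Eb1 and chr17:34238755-34238904 for H2-Ob. CTNGCAAC began 84, 94 and 90 bases before the start of H2-Aa, H2-Eb1 and H2-Ob, and the forward ATTGG 48, 59 and 57 bases before it. CCAAT in H2-Eb1 is ATTGG on the other strand. Of 32544 promoters of 300 bases in the table, 1122 (3.45%) held CTNGCAAC, 12158 (37.4%) held ATTGG and 433 (1.33%) held both. The H2-DMa and H2-DMb2 entries held ATTGG without CTNGCAAC or neither. H2-Ab1, Cd74, Ciita and H2-Ea-ps were not matched. The 3 genes with both motifs had interactions from -1.85 to -0.97 and so spanned the whole range of the list.

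MHC class I and immunoproteasome genes gave other values. Their median interaction was -0.17, above the panel median, and 0.48 when centred. Of the 9 tested, 1 was below 0 at an unadjusted p under 0.05 (21% of the panel), and 1 when centred. On the deposited scaling that gene was Mr1, which shows vitamin B metabolites to mucosal-associated invariant T cells. Mr1 had signals of 34.4, 31.2 and 44.4 in IL10_STAT and 59.2, 74.4 and 66.8 in IL10_control, without overlap, and 140, 132 and 84.2 in WT_STAT against 95.5, 77.4 and 63.3 in WT_control. The interaction was -1.43 ± 0.36 (limma adjusted p = 0.104) and -0.78 when centred. It is 1 of the 8 genes that were lower in IL10-labelled samples under both inocula, and IL10-labelled minus C57-labelled was -1.65 under STAT and -0.22 under control.

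Macrophage and monocyte genes were lower in the interaction than the panel, with a median of -1.03, and -0.38 when centred. Of the 12 tested, 0 passed, 11 were below 0 and 4 were below 0 at an unadjusted p under 0.05 (21% of the panel), 2 when centred. Those 4 had 2 shapes. Cx3cr1, the fractalkine receptor of gut macrophages, and Emr1, which encodes F4/80, were higher under STAT in the C57-labelled samples, whereas Cd163 and Cd36 were lower under STAT in the IL10-labelled samples.

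Cx3cr1 had signals of 167, 179 and 161 in IL10_STAT and 274, 200 and 221 in IL10_control, with 212, 167 and 114 in WT_STAT and 95.5, 85.6 and 89.5 in WT_control. Neither pair of groups overlapped, and the interaction was -1.26 ± 0.33 (limma adjusted p = 0.104; -0.61 when centred). The WT_STAT range enclosed that of IL10_STAT, so the gap between genotype labels was 0.08 under STAT, against 1.34 under control. Emr1 also had no overlap between STAT and control in either genotype label, and its interaction was -1.06 ± 0.29 (adjusted p = 0.104; -0.42 when centred). Unlike for Cx3cr1, every IL10_STAT sample was above every WT_STAT sample, with a gap of 0.67 under STAT and 1.74 under control.

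Cd163, a scavenger receptor for haemoglobin bound to haptoglobin, had the lowest value of the macrophage list. Its signal was 25.9, 7.24 and 14.7 in IL10_STAT and 68.2, 46.7 and 109 in IL10_control, without overlap. It was 240, 182 and 145 in WT_STAT and 173, 192 and 104 in WT_control, which overlapped. The difference was -2.23 ± 0.45 in IL10-labelled samples (limma adjusted p = 0.102) and 0.29 ± 0.45 in C57-labelled samples, and the interaction was -2.52 ± 0.63 (adjusted p = 0.104, interval -3.92 to -1.12). It was -1.87 when centred and -1.93 with values under 20 set to 20. Cd36, a scavenger receptor for lipids, had 138, 148 and 178 in IL10_STAT and 289, 418 and 548 in IL10_control, and 848, 865 and 461 in WT_STAT against 494, 862 and 420 in WT_control. Its interaction was -1.70 ± 0.49 (adjusted p = 0.104; -1.05 when centred).

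Monocyte chemokines and their receptors had a median of -0.96 over 8 tested genes, and -0.31 when centred. At an unadjusted p under 0.05, 3 were below 0 (21% of the panel), and 1 when centred. Next to Ccl8 and Cx3cr1 the 3 included Ccl12, another monocyte chemokine, at -1.49 ± 0.43 (limma adjusted p = 0.104; -0.84 when centred). The list was not uniform, since Ccl7, a close relative, was at 0.44 ± 0.41 (adjusted p = 0.602) and Ccl2 at -0.09 ± 0.66. Ccl2 was outside the naming rule and was chosen after its value was seen.

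Complement genes included 2 chains of C1q, which macrophages make. C1qb had signals of 1968, 2080 and 2161 in IL10_STAT and 2700, 2700 and 2103 in IL10_control, and 1310, 1005 and 873 in WT_STAT against 631, 552 and 644 in WT_control. Its interaction was -1.05 ± 0.28, that of C1qa was -0.99 ± 0.30, and that of C3, the central complement protein, was -1.43 ± 0.42 (limma adjusted p = 0.104 for each). Centred values were -0.40 for C1qb, -0.35 for C1qa and -0.79 for C3. Of the 16 tested members 7 were below 0 at an unadjusted p under 0.05, against 21% of the panel, with a list median of -0.82. When centred the median was -0.17, and 2 of the 16 were below 0 at that p. C1qb and C1qa passed in neither genotype label, and their WT_STAT and WT_control samples did not overlap.

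For a second set of genes the IL10-labelled difference was the larger in size. Il18, a cytokine of the interleukin 1 family that gut epithelium makes at rest, had signals of 224, 177 and 186 in IL10_STAT and 416, 364 and 497 in IL10_control. It was 522, 400 and 673 in WT_STAT and 494, 488 and 440 in WT_control, which overlapped. The IL10-labelled difference was -1.11 ± 0.22 (limma adjusted p = 0.102), the C57-labelled one was 0.14 ± 0.22, and the interaction was -1.25 ± 0.32 (adjusted p = 0.104; -0.60 when centred). With the B cell covariate Il18 was the only gene that passed in the IL10-labelled contrast, as a decrease.

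Cxcl12, a chemokine of stromal cells that retains leukocytes, had close replicates in both IL10-labelled groups. Its signal was 1437, 1490 and 1372 in IL10_STAT and 2477, 2390 and 2477 in IL10_control. It was 3173, 2868 and 1849 in WT_STAT and 2201, 1961 and 1561 in WT_control, where WT_STAT 3 lay inside the control range. The interaction was -1.21 ± 0.32 (limma adjusted p = 0.104; -0.57 when centred), and IL10-labelled minus C57-labelled was -0.84 under STAT and 0.37 under control.

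Other stromal genes stood with it. Of the 9 tested, all were below 0, 5 at an unadjusted p under 0.05 (21% of the panel), with a median of -1.02. When centred 7 were below 0, 2 of them at that p, and the median was -0.37. The median difference was -0.67 in IL10-labelled and 0.36 in C57-labelled samples. Tgfb3, a transforming growth factor, was at -1.02 ± 0.36 (limma adjusted p = 0.172; -0.37 when centred). Cd34, a marker of vessels and fibroblasts, was at -1.12 ± 0.46 (adjusted p = 0.192; -0.47 when centred). The summed signal of the 9 stromal markers was 3129 to 3380 in IL10_STAT, 5151 to 6676 in IL10_control, 5967 to 8595 in WT_STAT and 4431 to 6366 in WT_control, so that only IL10_STAT stood apart. The part of stromal content in these values was not tested.

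Cfd, the adipocyte protease also called adipsin, had the lowest interaction of all tested genes, at -3.81 ± 1.26 (limma adjusted p = 0.14; -3.16 when centred). Its signals were 127, 95.1 and 229 in IL10_STAT and 349, 2068 and 1063 in IL10_control, with 798, 2474 and 2295 in WT_STAT and 181, 1989 and 1238 in WT_control. Each of the 3 groups other than IL10_STAT varied widely within itself. Maf, a transcription factor that drives Il10 in T cells and macrophages, had 25.2, 45.2 and 35.3 in IL10_STAT and 92.3, 127 and 92.8 in IL10_control. In the C57-labelled mice Maf had 112, 114 and 51.7 in WT_STAT and 129, 97.9 and 35.7 in WT_control, and its interaction was -1.74 ± 0.66 (adjusted p = 0.184). Dpp4, a brush-border peptidase, was at -1.09 ± 0.60 (adjusted p = 0.319), with the STAT minus control difference below 0 in both genotype labels.

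Several leukocyte receptors were lower under STAT in IL10-labelled and higher in C57-labelled samples, without overlap in either. Spn, which encodes the leukocyte sialoglycoprotein CD43, had signals of 117, 176 and 193 in IL10_STAT and 246, 314 and 220 in IL10_control, and 66.5, 52 and 41.8 in WT_STAT against 31.2, 39.2 and 26.9 in WT_control. Cd48, a ligand of natural killer and T cell receptors, had 360, 349 and 358 in IL10_STAT and 465, 517 and 364 in IL10_control, and 288, 254 and 156 in WT_STAT against 124, 137 and 113 in WT_control. IL10_control 3 was the nearest control to the IL10_STAT samples for both genes. The interaction was -1.39 ± 0.38 for Spn and -1.17 ± 0.34 for Cd48 (limma adjusted p = 0.104 for each), and -0.74 and -0.52 when centred.

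Cmklr1, the chemerin receptor of macrophages and natural killer cells, had signals of 84.3, 107 and 110 in IL10_STAT and 146, 129 and 110 in IL10_control, and 105, 98.6 and 61.6 in WT_STAT against 53.8, 47.4 and 31.3 in WT_control. Its interaction was -1.34 ± 0.38 (limma adjusted p = 0.104; -0.69 when centred). Endothelial genes had a median of -0.95 over 5 tested, 3 of them below 0 at an unadjusted p under 0.05 (21% of the panel). When centred the median was -0.30, and 1 was below 0 at that p. Icam2, an adhesion molecule of vessel walls, was at -1.29 ± 0.39 (adjusted p = 0.104; -0.65 when centred). Icam1, its inducible relative, was at -0.95 ± 0.38 (adjusted p = 0.192; -0.30 when centred). Dendritic cell genes had a median of -0.76 over 9 tested, with 3 below 0 at that p, Batf3 among them, and 1 when centred. Cytotoxic and natural killer genes were nearer the panel, at -0.58 with 1 of 8 below 0 at that p, and at 0.07 with 0 when centred. That gene, the receptor Cd244, was at -1.17 ± 0.37 (adjusted p = 0.11).

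T cell genes had a median of -0.91 over 13 tested, with 6 below 0 at an unadjusted p under 0.05, against 21% of the panel. When centred the median was -0.26, and 2 of the 13 were below 0 at that p. Cd2, an adhesion receptor, had signals of 174, 209 and 166 in IL10_STAT and 273, 361 and 177 in IL10_control, and 79.0, 94.7 and 54.5 in WT_STAT against 17.6, 39.2 and 34.2 in WT_control. Its interaction was -1.84 ± 0.49, and that of Il7r, the interleukin 7 receptor, was -1.55 ± 0.41 (limma adjusted p = 0.104 for each). Centred values were -1.20 for Cd2 and -0.90 for Il7r. Cd3d, part of the T cell receptor complex, had a smaller value of -0.78 ± 0.28 (adjusted p = 0.172; -0.14 when centred). Of the interleukin 2 receptor chains, Il2rg was at -1.38 ± 0.38 (-0.73 when centred) and Il2ra at -1.22 ± 0.34 (-0.57 when centred), both at adjusted p = 0.104. Il2rb, the other chain and outside the naming rule, was at -1.02 ± 0.36 (adjusted p = 0.172). Map4k1, a kinase that damps antigen-receptor signals, was at -1.41 ± 0.38, also at 0.104.

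Cd69, Ctla4 and Foxp3, which mark activated and regulatory T cells, were under 20 in every C57-labelled sample. Cd69, an early activation marker, had an interaction of -2.47 ± 0.66 (limma adjusted p = 0.104), but its signal was 19.7, 10.5 and 19.1 in WT_STAT and 1.36, 7.84 and 3.64 in WT_control, and with values under 20 set to 20 it was -0.59. Ctla4, an inhibitory receptor, was at -2.05 ± 0.66 (adjusted p = 0.124) and -0.32 by that setting. Foxp3, which defines regulatory T cells, was at -0.66 ± 1.34 (adjusted p = 0.824), with 31.6, 35.2 and 44.4 in IL10_STAT, 51.7, 47.8 and 45.1 in IL10_control, and no sample above 20 in the C57-labelled mice.

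B cell genes had a median of -1.65 over 11 tested members, and -1.0 when centred, and 2 were below 0 at an unadjusted p under 0.05, near the panel share of 21%. It was the lowest of the list medians by both scalings. MHC class II was lower when quantile normalized, at -0.91 against -0.86, and with values under 20 set to 20, at -1.20 against -1.18. Cd22, an inhibitory receptor of B cells, shows the spread within groups. Its signal was 68.9, 95.1 and 98.0 in IL10_STAT and 136, 261 and 46.6 in IL10_control, and 104, 94.7 and 23.4 in WT_STAT against 14.9, 20.1 and 13.8 in WT_control. Within IL10_control and within WT_STAT 1 sample was far below the others, and the interaction was -2.33 ± 0.90 (limma adjusted p = 0.187). Pax5, the transcription factor of B cell identity, was at -2.98 ± 1.60 (adjusted p = 0.302).

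Genes of organised lymphoid tissue followed the same samples. Their mean log2 signal was 6.26, 6.69 and 6.66 in IL10_STAT and 7.19, 7.63 and 5.49 in IL10_control, with 5.88, 5.28 and 3.88 in WT_STAT and 3.86, 4.72 and 4.04 in WT_control. The median interaction was -1.32 over 13 genes, and 3 were below 0 at an unadjusted p under 0.05, near the panel share of 21%. When centred 1 was below 0 at that p. With the B cell mean as a covariate the median was -0.24, and 0 were below 0 at that p. Cr2 and Cxcr5 belong to both this list and the covariate, so the list was partly adjusted for itself. Ccl19, the chemokine of T cell zones, was at -2.16 ± 0.77 (limma adjusted p = 0.172) and Cxcl13, that of B cell follicles, at -1.32 ± 0.53 (adjusted p = 0.192). Whether a piece of ileum held a Peyer's patch is not given in the sources used here, and its part in these values was not tested. The covariate brought the panel median to -0.22 and the genes below 0 at an unadjusted p under 0.05 to 46, and 10 were above 0.

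**Figure D4:**
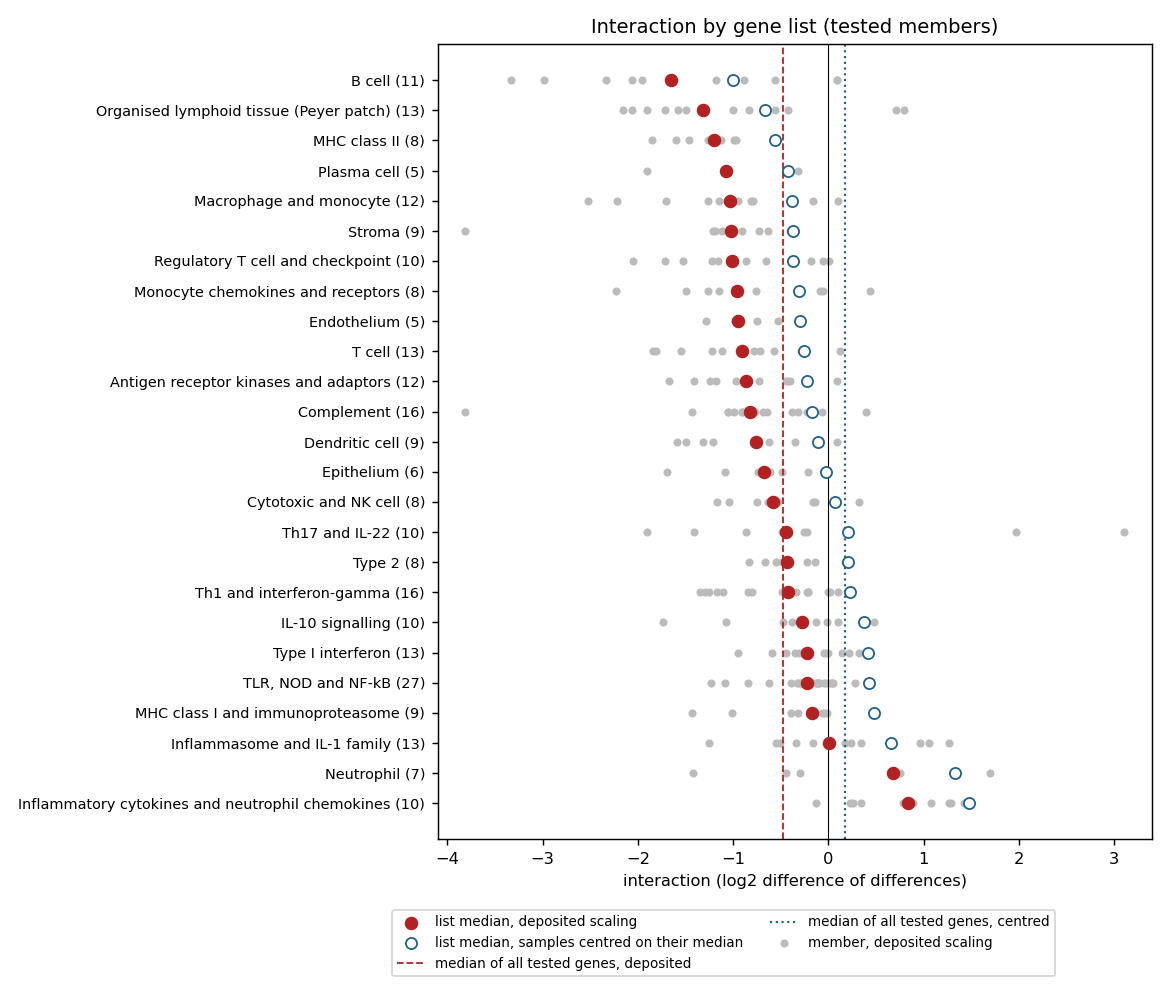
Interaction by gene list in log2 units, with tested members in grey, the list median as deposited in red and with samples centred on their median as open blue circles. The dashed and dotted lines are the panel medians of -0.48 and 0.17. B cell, lymphoid tissue and MHC class II lists lie furthest left, and the neutrophil and inflammatory lists lie right of 0.

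Inflammatory cytokines and neutrophil chemokines were the list furthest above 0. Their median interaction was 0.84, and 1.48 when centred, 9 of 10 were above 0, and 0 reached an unadjusted p of 0.05 in either direction. The median difference was 0.80 in IL10-labelled and 0.09 in C57-labelled samples. Il1b, the archetypal inflammasome product, had signals of 547, 2030 and 1393 in IL10_STAT and 1357, 1277 and 106 in IL10_control, while it was 16.3 to 27.4 in WT_STAT and 9.21 to 24 in WT_control. Its interaction was 0.34 ± 1.24 (limma adjusted p = 0.909) and became -0.86 without IL10_control 3, the sample with the low value. Ptgs2, which encodes cyclooxygenase 2, was at 1.08 ± 1.15 (adjusted p = 0.67), and it was -0.08 without that sample.

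The remaining members of the inflammatory set were as variable. Il6 was at 0.89 ± 1.55 and Tnf at -0.13 ± 0.80 (limma adjusted p = 0.786 and 0.943), and Tnf had a signal of 190, 342 and 244 in IL10_STAT and 193, 224 and 122 in IL10_control. The neutrophil list had a median of 0.68, and 0.14 with values under 20 set to 20. Its summed signal was 1997 to 7985 in IL10_STAT and 388 to 30192 in IL10_control, against 7.79 to 48.2 in WT_STAT and 18.4 to 29.0 in WT_control. IL10_control 3 had the lowest neutrophil sum of the IL10-labelled samples, and IL10_control 2 the highest.

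Il17f, a neutrophil-recruiting cytokine of Th17 cells, was the only gene above 0 at an unadjusted p under 0.05 on the deposited scaling. Its signal was 24.5, 26.2 and 21.3 in IL10_STAT and 21.6, 10.2 and 10.5 in IL10_control, and 0, 4.05 and 0 in WT_STAT against 4.98, 5.12 and 15.3 in WT_control. The interaction was 3.10 ± 0.87 (limma adjusted p = 0.104, interval 1.19 to 5.01). It rests on values at the bottom of the scale, and with values under 20 set to 20 it was 0.21. Il17a, its close relative, was at 1.97 ± 0.94 (adjusted p = 0.255) and 0.34 by the same setting.

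Il1rn, which encodes the interleukin 1 receptor antagonist, had the smallest p among genes above 0 after Il17f and Il17a. Its signal was 1491, 1608 and 1548 in IL10_STAT and 1041, 878 and 590 in IL10_control, without overlap, and 198, 341 and 507 in WT_STAT against 323, 287 and 392 in WT_control. The interaction was 0.96 ± 0.46 (limma adjusted p = 0.263; 1.61 when centred). Irf7, the master regulator of type I interferon, was at 0.32 ± 0.26 (adjusted p = 0.543; 0.97 when centred). Nos2, the inducible nitric oxide synthase, was 551 to 1009 in IL10_STAT and 704 to 757 in IL10_control, against 7.79 to 20.9 in WT_STAT and 14.7 to 22.6 in WT_control, and its interaction was 0.49 ± 0.47 (adjusted p = 0.614).

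Interferon and pattern-recognition lists lay near the panel median. Th1 and interferon-gamma genes had a median of -0.42 with 4 of 16 below 0 at an unadjusted p under 0.05 (21% of the panel), type I interferon genes -0.23 with 1 of 13, and the receptors and kinases of the TLR, NOD and NF-kB list -0.22 with 1 of 27. Each of these medians was above 0 when centred, at 0.23, 0.42 and 0.43. At that p 0 members of the 3 lists were then below 0, and 1, 3 and 3 were above 0 (7% of the panel). Tmem173, the DNA sensor adaptor STING, was the type I interferon gene below 0, at -0.95 ± 0.33 (limma adjusted p = 0.172; -0.30 when centred). The IL-10 signalling list had a median of -0.28, and 0.37 when centred. Of its 10 genes 2 were below 0 at an unadjusted p under 0.05, near the panel share of 21%. They were Maf and the receptor Il10ra, the second at -1.07 ± 0.38 (limma adjusted p = 0.172). When centred 1 was below 0 and 2 were above 0 at that unadjusted p. Ifng and Il22 were not tested, since Ifng reached 20 in 2 samples, both IL10_STAT, and Il22 in none.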

How the data were processed

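The authors deposited 1 table of 547 genes by 12 samples as a normalized linear signal. The normalization and software are not given in the sources used here. Positive values lay whole steps apart within 0.01 counts, as for barcode counts minus a background times a sample factor, and 0 columns belonged to no sample. Symbols were checked against RefSeq: 531 current, 14 synonyms, 2 unmatched.

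Groups followed the description label, and replicate numbers the record order. The 457 genes whose signal reached 20 in 3 or more samples were tested and 90 were left out. limma 3.58.1 in R 4.3.3 fitted 4 group means to log2(signal + 1), with moderated variances and Benjamini-Hochberg adjustment over all tested genes at a threshold of 0.05. Log2 differences of low genes depend on how values near 0 are treated. The Il17f interaction, for example, was 3.10, and 0.21 with values under 20 set to 20. The script was tested on simulated data. Python 3.11.15 made tables and figures.

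Alternatives, 22 in all, were 3 scalings, a pseudocount of 20, 2 filters, array weights (estimated gene by gene), a variance trend, a B cell covariate of 11 genes, values under 20 set to 20 (chosen after seeing the data) and each sample left out. Named genes were Il10, the 30 of smallest interaction p, the 10 of smallest p above 0, up to 4 per described list and 8 fixed genes. The question, members and lists were chosen with earlier results of these data known. Lists are described by counts and medians without a test. The number of samples limits the precision.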

Additional observations from a re-analysis of the deposited data

Results flagged for a closer look

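For 10 of the 457 tested genes (2.19%) every IL10_STAT sample was below every IL10_control sample while every WT_STAT sample was above every WT_control sample, and for 0 genes (0%) the opposite held. These counts were made on the deposited scaling alone. The interaction was -1.59 for Batf3, -2.23 for Ccl8, -1.26 for Cx3cr1, -1.39 for Spn, -1.06 for Emr1, -1.34 for Cmklr1, -1.17 for Cd48, -1.29 for Icam2, -1.71 for Card9 and -2.63 for Il27ra. By the interaction test none of the 10 passed in limma, with adjusted p from 0.0815 for Batf3 to 0.192 for Il27ra, n = 3 in each of 4 groups. Card9, an adaptor of fungal-sensing receptors, and Il27ra, a subunit of the interleukin 27 receptor, fall outside the naming rule and were chosen after their values were seen. Both had low WT_control signals, 16.7, 5.12 and 12.4 for Card9 and 14.9, 18.8 and 0.728 for Il27ra. With values under 20 set to 20 the interaction was -0.83 for Card9 and -1.27 for Il27ra, and leaving out 1 sample gave -3.27 to -1.51 for Il27ra, the -1.51 without WT_control 3. For Cmklr1 the highest IL10_STAT and the lowest IL10_control signal both round to 110.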

How the results depend on the processing

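No paired analysis was possible because the labels give no replicate numbers that groups share. The interaction had 0 passing genes, and 97 with array weights, while leaving out 1 sample gave 0 to 58. The IL10-labelled contrast had 0, and 12 with array weights, 1 with the B cell covariate and 0 without any single sample. The C57-labelled contrast had 4, and 0 when centred or quantile normalized, 65 with array weights, 8 with a variance trend, 2 with the B cell covariate and 0 to 44 without 1 sample, the 44 without WT_STAT 3 and 0 without WT_STAT 1 or WT_control 1. The cause was not tested. Il10 (0.48) was -0.02 with a pseudocount of 20 and -0.04 with values under 20 set to 20. Tnf (-0.13) was 0.52 when centred, 0.70 quantile normalized, 0.15 scaled on 20 broadly expressed genes, 0.23 with a pseudocount of 20, 0.35 with array weights, 0.53 with values under 20 set to 20 and 0.14 with the B cell covariate, and Foxp3 (-0.66) was 0.27 with that covariate. Leaving out 1 sample gave -0.84 to 0.39 for Tnf, -1.59 to 0.54 for Foxp3, -0.86 to 0.97 for Il1b, -0.18 to 1.86 for Il6, -0.08 to 1.71 for Ptgs2 and -0.01 to 2.08 for Ltb4r1. Over the named genes and 22 alternatives, 1622 values kept direction and side of the threshold, 86 passed it and 24 turned direction. Genes under 20 in both C57-labelled groups, such as Cd69 and Il17f, have no measured order there.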
